A study of Mus musculus with 70 samples.

Results

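Transcripts that mark B lymphocytes, T lymphocytes and natural killer (NK) or cytotoxic lymphocytes were followed in the mouse lung under 13 chemicals and their vehicles. The set comprised 34 genes, chosen by symbol: 9 B cell genes, 16 T cell genes and 9 NK and cytotoxic genes. Of these, 33 had an array probe set assigned to that gene alone, out of 18193 genes measured that way, and 32 passed a filter on low signal that kept 14593 genes. Lck, the kinase of the T cell co-receptors, had no such probe set among the values used here, and Ctla4, an inhibitory T cell receptor, fell under the filter with group means of 4.06 to 4.40 log2 units. Where a gene had several probe sets, the one with the highest mean over the 70 arrays stood for it.

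Lung RNA came from 70 female B6C3F1 mice, a hybrid strain used in rodent cancer bioassays, aged 18 weeks after 13 weeks of exposure, and each animal gave 1 array. The tissue was whole right lobe, so every value is an average over all cell types present. Animals are numbered in a set 1 and a set 2, and what separates the sets is not stated. By the labels, 7 of the chemicals cause lung tumours (positive) and 6 do not (negative).

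In set 1 each group held 3 mice. Feed carried 1,5-naphthalenediamine at 2000 ppm (positive), N-(1-naphthyl)ethylenediamine dihydrochloride at 2000 ppm (negative) or pentachloronitrobenzene at 8187 ppm (negative), and 3 mice had control feed. 2,3-Benzofuran at 240 mg/kg (positive) was given in corn oil by gavage, with 3 corn oil controls. In set 2 each treated group held 4 mice. Feed carried 2,2-bis(bromomethyl)-1,3-propanediol at 1250 ppm (positive), 4-nitroanthranilic acid at 10000 ppm, malathion at 16000 ppm or diazinon at 200 ppm (all negative), with 4 feed controls. Corn oil gavage carried coumarin at 200 mg/kg, 1,2-dibromoethane at 62 mg/kg or benzene at 100 mg/kg (all positive), with 8 corn oil controls. N-methylolacrylamide at 50 mg/kg (positive) and 2-chloromethylpyridine hydrochloride at 250 mg/kg (negative) were given in water by gavage, with 4 water controls. Feed was offered on 7 days a week, and gavage was given on 5 days a week at 5 ml/kg.

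B cells recognise antigen through a surface immunoglobulin whose signal runs through the Cd79a and Cd79b chains, and the lung holds them in blood vessels, in scattered tissue pools and in follicles along the airways. T cells carry an antigen receptor tied to the Cd3 and Cd247 chains, with Cd4 or Cd8 as co-receptor. NK cells and cytotoxic T cells kill through granules that hold perforin (Prf1) and granzymes, under the control of the T-box factors Eomes and Tbx21. The mouse lung is rich in NK cells, most of them in its vessels.

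Signals are log2 values, so a difference of 1 unit is a doubling. Levels of different genes cannot be set against each other, since each probe set has its own response. Each chemical was compared with the controls of its own vehicle and set by limma in 1 model over all 18 groups. A gene was called where the Benjamini-Hochberg adjusted p over all 14593 genes was under 0.05, and changes are given with the standard error (SE) of the fit. Counts at an unadjusted p under 0.05 and counts of positive changes come without the share of all genes and describe the members only. In bulk tissue, fewer cells of a type and less RNA per cell cannot be told apart. Array medians ran from 5.41 to 5.52 log2 units. The labels give an RNA integrity number for most animals, though for none of the diazinon group. It ran from 8.3 to 9.4 in set 1 and from 7.1 (1,2-dibromoethane animal 2-56) to 8.8 in set 2, with 7.4 in coumarin animal 2-75. This number entered no fit. RNA integrity was also read from actin and Gapdh control probes: the 3' signal exceeded the 5' signal by 0.08 to 0.99 log2 units on average, with the highest value in animal 2-56 of the 1,2-dibromoethane group. The mean of 5 alveolar type II genes, which mark lung tissue, lay between 12.93 and 13.16 in the 8 corn oil controls of set 2.

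Between animals of 1 group, the B cell genes varied together, and so did the NK and cytotoxic genes. The T cell genes varied with the B cell genes about as closely as with each other. After each gene's group mean was removed, the median pairwise correlation over the 70 animals was 0.62 among the 9 B cell genes, 0.33 among the 14 T cell genes tested and 0.53 among the 9 NK and cytotoxic genes. It was 0.36 between B and T cell genes, 0.28 between T and NK genes, 0.26 between B and NK genes and 0.02 over all pairs of the 14593 genes. The closest pair was Cd79a with its receptor partner Cd79b (r = 0.92), followed by the Cd3d and Cd3g chains (0.91) and by Nkg7, a granule membrane protein, with granzyme B (0.85). Cd8b1, the beta chain of the Cd8 co-receptor, ran with Cd3d (0.85). Icos, a costimulatory receptor, and Cd4 had a correlation of -0.24. The mean of the B cell genes and that of the T cell genes had a correlation of 0.75, that of B with NK genes 0.44 and that of T with NK genes 0.57. These correlations describe points that share arrays, hybridisation and tissue sampling.

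**Figure D1:**
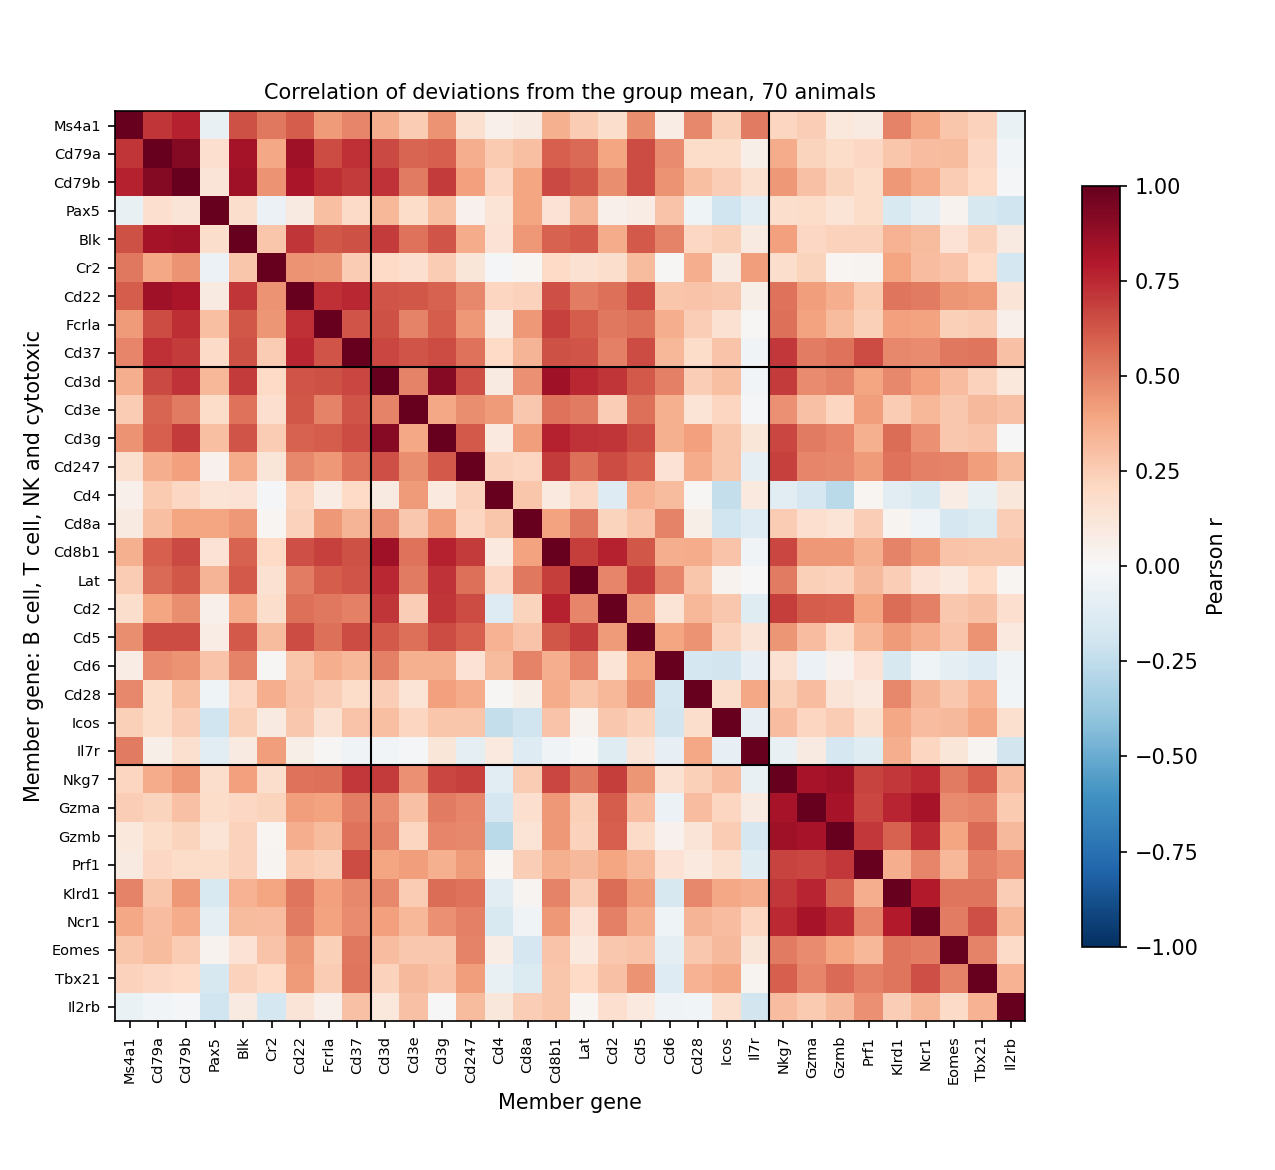
Pearson correlation between every 2 of the 32 tested genes over 70 animals, after the mean of each animal's group was removed. Both axes list the genes in the order B cell, T cell, NK and cytotoxic, with lines between the types, and colour gives r. The blocks of B cell genes (median 0.62) and of NK and cytotoxic genes (median 0.53) are the most uniformly red, while Pax5 and Il7r are pale within theirs.

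The 3 types varied with other cell types to different degrees. Deviations of the NK mean had a correlation of 0.62 with the mean of monocyte and dendritic cell genes, 0.66 with that of pan-leukocyte genes and 0.47 with that of erythroid genes. For the B cell mean these were 0.14, 0.56 and -0.0014, and for the T cell mean 0.25, 0.51 and 0.02. The correlation of the 3' minus 5' difference was 0.26 with the B cell mean, 0.06 with the T cell mean and -0.09 with the NK mean.

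Across the 13 chemicals, calls among the 32 genes were made in 3. Coumarin had 8 NK and cytotoxic genes lower, malathion had 4 T cell genes and 1 B cell gene higher, and N-methylolacrylamide had the T cell gene Il7r higher. No member was called in the other 10 chemicals.

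**Figure D2:**
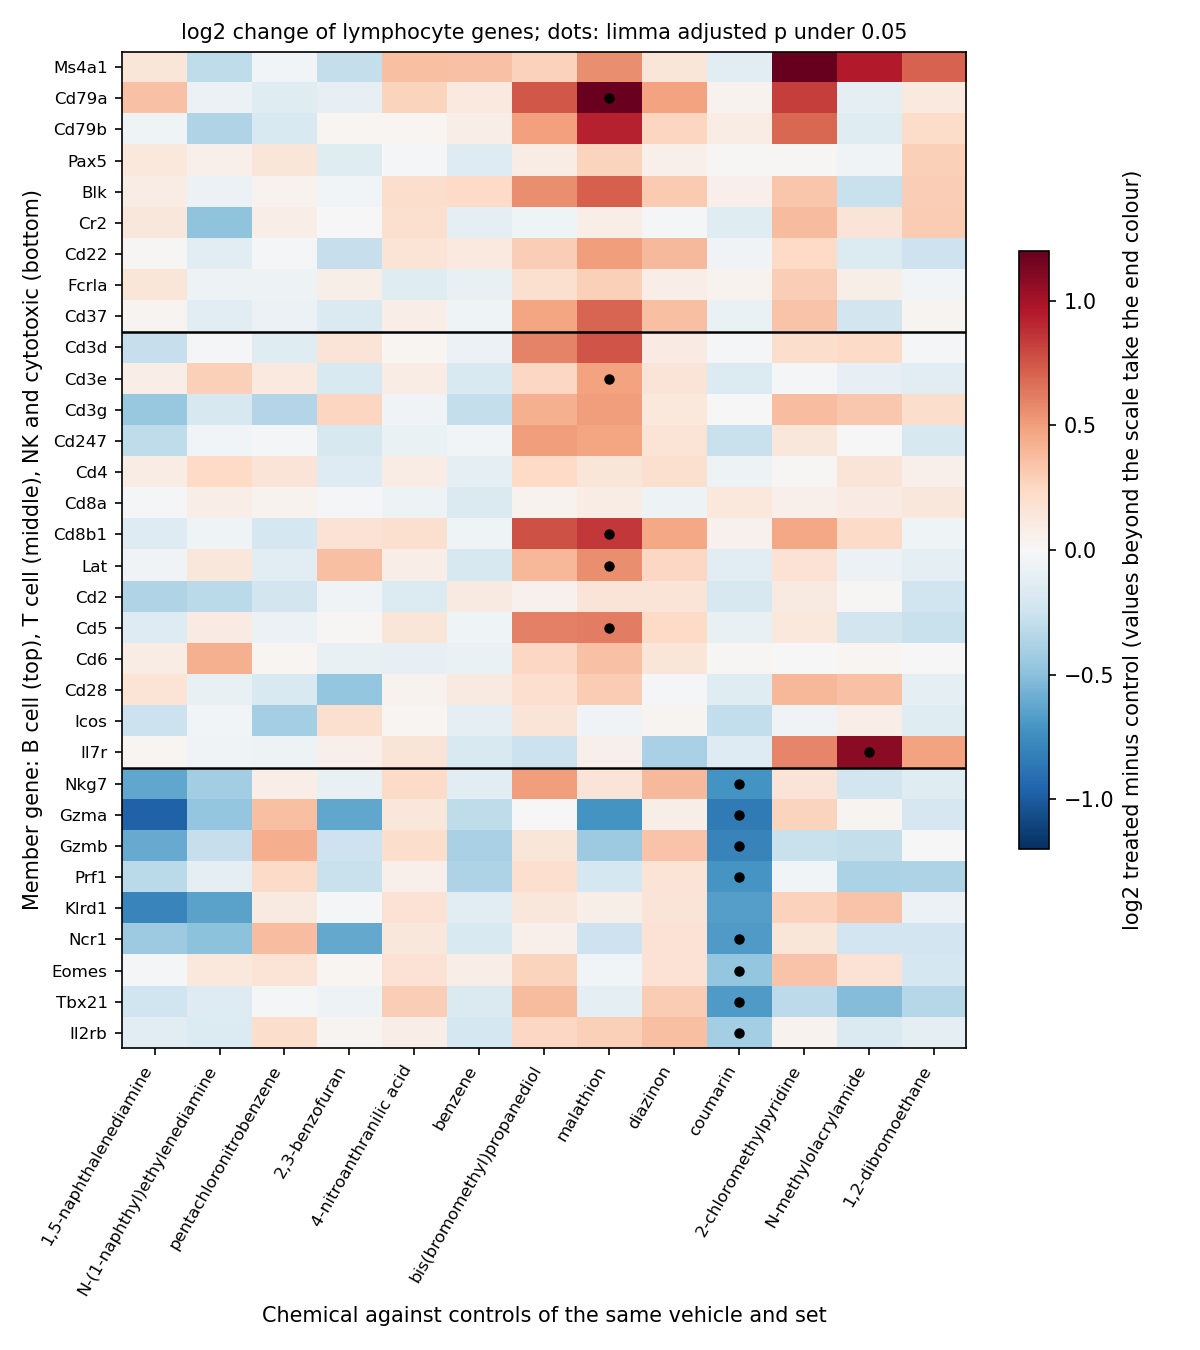
Log2 change of each tested gene (rows, grouped as B cell, T cell, NK and cytotoxic) under each of the 13 chemicals (columns), treated minus control. Red is higher and blue lower than the controls of the same vehicle and set, and a dot marks a limma adjusted p under 0.05. The dots form a blue block of 8 NK genes under coumarin and a set of 5 red T and B cell genes under malathion, with 1 more at Il7r under N-methylolacrylamide.

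Lungs of coumarin-treated mice had lower transcripts of the killing machinery of NK cells and cytotoxic T cells, while the B cell genes stayed near the control level in the median. Of 9 NK and cytotoxic genes 8 fell, against 1.18% of all genes tested, and of 9 B cell genes and 14 T cell genes none was called (0 and 1 at an unadjusted p under 0.05). The median change was -0.68 over the NK and cytotoxic genes, -0.11 over the T cell genes, 0.02 over the B cell genes and -0.01 over all genes. Coumarin, a plant benzopyrone given here at 200 mg/kg in 4 mice, shared its 8 corn oil controls with 1,2-dibromoethane and benzene.

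Among the granule proteins, Gzmb (granzyme B, a protease that triggers apoptosis in target cells) stood at 5.74, 6.14, 6.25 and 6.44 in the coumarin-treated animals. In the 8 controls it ran from 6.53 through a median of 6.87 to 7.53, so the groups did not overlap. It fell by 0.80 ± 0.20 (SE) log2 units (limma adjusted p = 0.0085), to 0.573 times the control level. Gzma (granzyme A, another granule protease) stood at 8.83, 8.98, 9.12 and 9.62, against 9.24, 10.00 and 10.48 as the lowest, median and highest control. Only the highest treated animal reached into the control range, and Gzma fell by 0.84 ± 0.23 (adjusted p = 0.0213). Prf1 (perforin, which opens the target membrane) stood at 5.05, 5.05, 5.49 and 5.65 against 5.51, 6.11 and 6.47, with 1 treated animal inside the control range. It fell by 0.70 ± 0.18 (adjusted p = 0.0095) on this probe set, whereas its other probe set gave -0.05 ± 0.11. Nkg7 fell by 0.72 ± 0.21 (adjusted p = 0.0319).

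The promoters of these granule genes are shown because the genes moved together: the 250 bases before the transcription start of each, from RefSeq on build GRCm38.p6, 5′ to 3′ on the strand of the gene. They lie at chr14:56262335-56262584 on the minus strand (Gzmb), chr13:113100982-113101231 on the minus strand (Gzma), chr10:61297586-61297835 on the plus strand (Prf1) and chr7:43436888-43437137 on the plus strand (Nkg7). Capitals mark the letters TGTGGT, the core bound by RUNX factors, or its reverse complement.
Gzmb: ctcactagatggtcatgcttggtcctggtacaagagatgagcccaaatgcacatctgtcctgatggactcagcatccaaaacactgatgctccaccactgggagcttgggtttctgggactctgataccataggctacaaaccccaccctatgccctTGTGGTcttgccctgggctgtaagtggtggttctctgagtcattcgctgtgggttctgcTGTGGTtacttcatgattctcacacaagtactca
Gzma: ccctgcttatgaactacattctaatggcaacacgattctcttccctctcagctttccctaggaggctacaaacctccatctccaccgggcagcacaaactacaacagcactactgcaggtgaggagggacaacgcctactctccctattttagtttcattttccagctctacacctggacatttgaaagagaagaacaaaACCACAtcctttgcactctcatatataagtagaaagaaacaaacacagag
Prf1: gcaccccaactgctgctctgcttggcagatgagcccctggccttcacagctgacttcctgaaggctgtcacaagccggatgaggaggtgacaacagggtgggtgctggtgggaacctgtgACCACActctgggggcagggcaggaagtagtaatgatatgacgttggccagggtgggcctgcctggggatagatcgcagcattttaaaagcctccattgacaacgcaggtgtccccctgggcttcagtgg
Nkg7: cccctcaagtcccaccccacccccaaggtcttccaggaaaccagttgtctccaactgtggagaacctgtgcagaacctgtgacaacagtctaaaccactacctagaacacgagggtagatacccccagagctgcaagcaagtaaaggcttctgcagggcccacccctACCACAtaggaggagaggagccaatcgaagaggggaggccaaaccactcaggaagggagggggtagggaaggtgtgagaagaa

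TGTGGT on either strand was present in 5 of the 7 NK and cytotoxic genes with a promoter in the table (these 4 and Ncr1), and in 14% of all 32851 promoters over the same 250 bases. Gzmb held it at 2 positions, which start 93 and 34 bases before the transcription start. The T-box letters GTGTGA were in 3 of the 7 and in 12.3% of all promoters, and the ETS letters AGGAAGT in 2 of the 7 and in 7.69%. Over all 23 members with a promoter, the RUNX, T-box and ETS letters were in 6, 7 and 10. A gene counted if any of its promoters matched, and Ncr1 had 2, whereas the percentages count single promoters. Matches to different motifs overlapped in 0 member promoters, 11 members had no promoter in the table, and the 3 motifs were chosen with these matches known. A match is a description of letters, not of a site in use.

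Among the receptors, Ncr1 (NKp46, an activating receptor largely restricted to NK cells) stood at 5.30, 5.32, 5.64 and 5.88 under coumarin and at 5.69, 6.13 and 6.73 as the lowest, median and highest control. It fell by 0.68 ± 0.19 (adjusted p = 0.0235), with 1 treated animal inside the control range. Il2rb, the beta chain of the interleukin 2 and 15 receptors, fell by 0.41 ± 0.12 (adjusted p = 0.0364). Klrd1 (CD94, a partner of the NKG2 receptors) had a change of -0.66 ± 0.21 that did not pass (adjusted p = 0.0623), and its 4 treated values spread from 5.67 to 7.07. Both lineage factors fell, Tbx21 by 0.68 ± 0.20 (adjusted p = 0.0396) and Eomes by 0.46 ± 0.14 (adjusted p = 0.045). Their treated animals lay close together, at 4.30 to 4.50 for Tbx21 and 4.50 to 4.66 for Eomes, and overlapped with the lowest controls at 4.39 and 4.54. These values lie near the low-signal cutoff of 4.25, so their closeness cannot be read as close agreement between animals. A second probe set of Eomes (-0.40 ± 0.10) and of Il2rb (-0.48 ± 0.18) gave changes of the same sign.

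**Figure D3:**
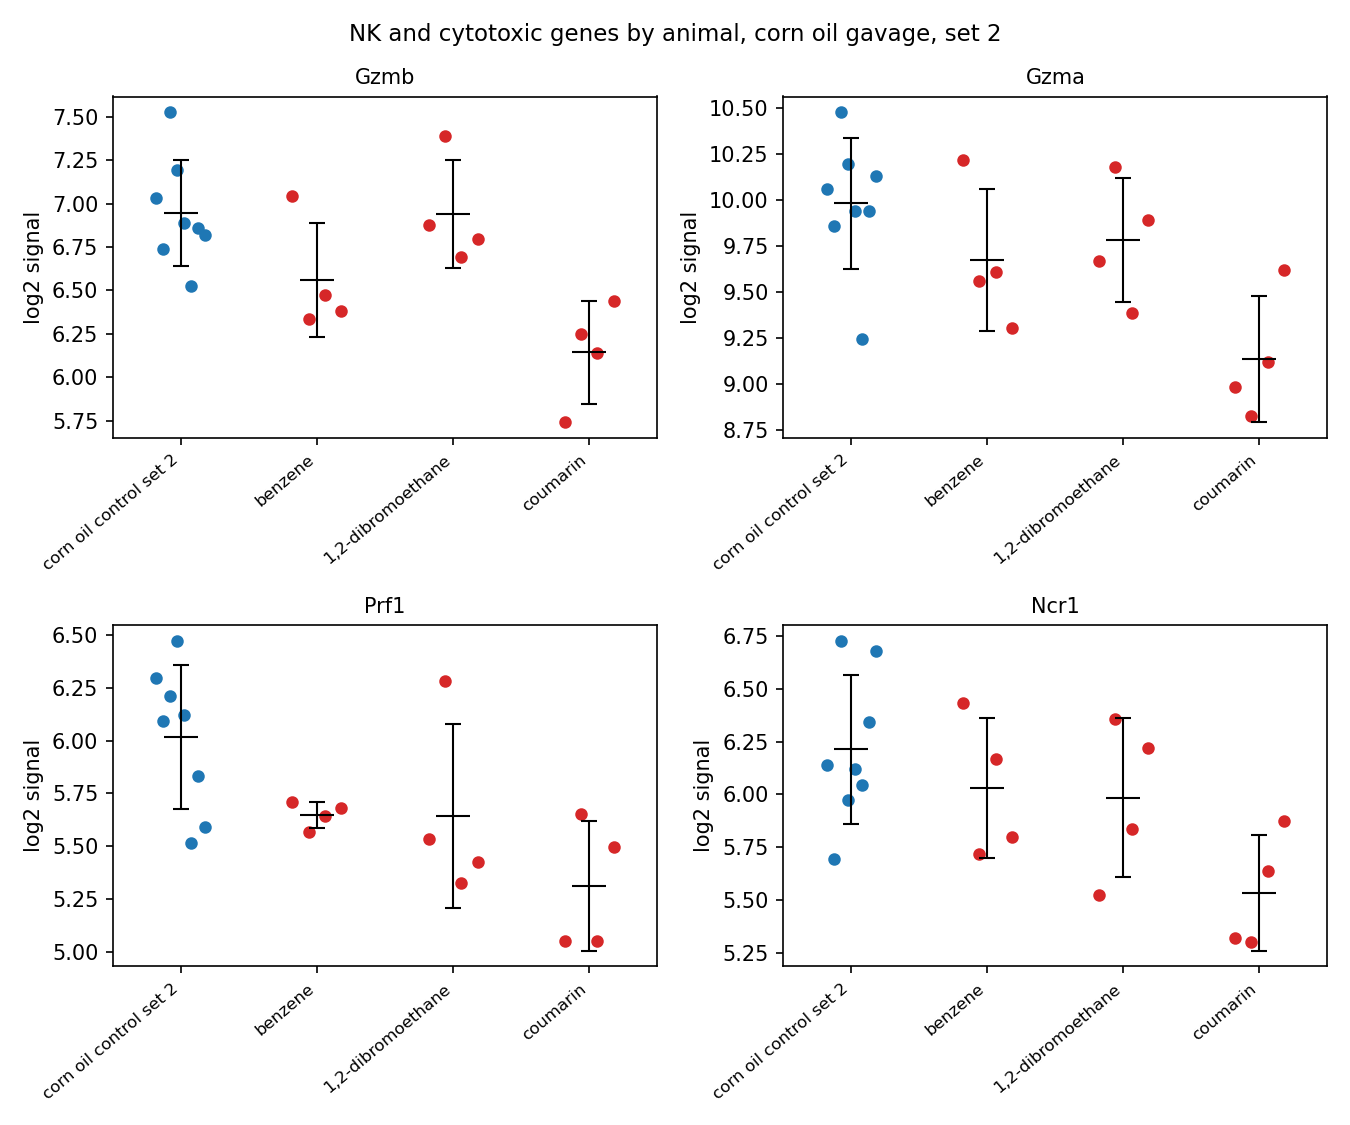
Log2 signal of Gzmb, Gzma, Prf1 and Ncr1 in each animal of the corn oil gavage groups of set 2, with the mean and SD as black bars, controls in blue and treated animals in red. The 4 coumarin-treated animals lie at 5.74 to 6.44 for Gzmb, below all 8 controls (6.53 to 7.53), and for the other genes 1 treated animal lies within the control range.

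Of 11 further NK and cytotoxic genes tested, 3 fell under coumarin: Ccl5, a chemokine of activated T and NK cells (-0.72 ± 0.21, adjusted p = 0.0384), Klre1 (-0.49 ± 0.13, adjusted p = 0.0123) and Klrg1 (-0.55 ± 0.16, adjusted p = 0.0343), both lectin-like receptors. Of 17 further T cell genes 1 fell, S1pr1, a receptor that guides lymphocytes out of tissue and is also made by endothelial cells (-0.62 ± 0.15, adjusted p = 0.0069). The T cell members had values closer to 0. Cd3e, a signalling chain of the T cell receptor, differed by -0.16 (95% interval -0.35 to 0.03), and Cd8b1 by 0.05 (-0.36 to 0.46). Icos had the smallest p of the T cell genes (-0.29 ± 0.14, adjusted p = 0.263). For the B cell genes, Cd79a differed by 0.04 (-0.56 to 0.63) and Ms4a1 (CD20, a B cell surface protein) by -0.13 (-0.98 to 0.72), so changes within these intervals are not excluded.

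Other cell types moved with the NK genes under coumarin. Of 8 endothelial genes 3 fell, and their mean was 10.18 to 10.34 against 10.40 to 10.64 in the controls. Of 6 ciliated cell genes 4 rose, with means of 8.85 to 9.17 against 8.06 to 8.75. The mean of the 2 erythroid genes tested was 7.79 to 8.12 against 7.81 to 10.01, and the red cell anion exchanger Slc4a1 fell by 1.49 ± 0.45 (adjusted p = 0.045). The mean of 9 monocyte and dendritic cell genes was 7.00 to 7.14 against 7.03 to 7.39, and that of 8 pan-leukocyte genes 9.80 to 10.23 against 9.72 to 10.49, with 0 called in either. Their part in the NK result was not tested. The corn oil controls themselves differed from the feed controls of set 2 in such genes. The NK mean was 6.65 in the corn oil controls, 6.29 in the feed controls and 5.99 under coumarin. In the same order, the endothelial mean was 10.52, 10.32 and 10.24, and the ciliated mean 8.39, 8.77 and 9.01. Ccl5 stood at 9.30, 8.54 and 8.58. Prf1 and Il2rb were called higher in corn oil than in feed controls, as the vehicle comparison shows.

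The count of 8 depended on single animals and on the model. It was 1 with the arrays of the 2 groups alone, 2 with a filter at the 50th percentile of gene means, 4 with array weights and 5 with pooled controls. It was 0 without treated animal 2-72, 2 without 2-75 and 3 without 2-76, 3 without control 2-59 and 5 without control 2-97, 2-99 or 2-132, and without 2-72 Gzmb was at -0.67 (adjusted p = 0.0802). In direct comparisons with the other corn oil chemicals, which were added after the comparison with controls was seen, 1 member was called against benzene (4.84% of all genes), Eomes at -0.54 ± 0.16 (adjusted p = 0.0389). Gzmb differed from benzene by -0.41 (95% interval -0.87 to 0.04). Against 1,2-dibromoethane 0 members were called (1.54% of all genes, 8 members at an unadjusted p under 0.05), and Gzmb differed by -0.79 (-1.25 to -0.34, adjusted p = 0.0539). Without 1 animal of either group the first count went to 0 (coumarin animals 2-72 and 2-75, benzene animals 2-82, 2-85 and 2-90) or to 2 (coumarin animals 2-76 and 2-80), and the second to 1 (1,2-dibromoethane animal 2-58) or 2 (coumarin animal 2-80).

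Under malathion, an organophosphate insecticide fed at 16000 ppm, 4 of 14 T cell genes and 1 of 9 B cell genes rose, and 0 of 9 NK and cytotoxic genes were called. These 5 of 32 members, against 1.03% of all genes tested, were the T cell genes Cd3e, Cd8b1, Cd5 and Lat and the B cell gene Cd79a, and 0 members fell. The median change was 0.56 over the 9 B cell genes, 0.41 over the 14 T cell genes, -0.10 over the 9 NK and cytotoxic genes and 0.02 over all genes. In 12 of the 32 members all 4 treated animals lay above all 4 feed controls, which held for 7.63% of all genes. The 12 were Cd79a, Cd79b, Blk, Cd22 and Cd37 of the B cell genes, Cd3d, Cd3e, Cd247, Cd8b1, Lat and Cd5 of the T cell genes, and Il2rb.

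Among the receptor chains, Cd3e stood at 7.20, 7.27, 7.32 and 7.33 under malathion and at 6.68, 6.73, 6.83 and 6.94 in the feed controls of set 2, with a gap between the groups. It rose by 0.48 ± 0.11 (adjusted p = 0.0103), or 1.40-fold. Cd8b1 stood at 6.00, 6.04, 6.13 and 6.40 against 5.13, 5.21, 5.41 and 5.43, again without overlap, and rose by 0.85 ± 0.24 (adjusted p = 0.0399). Cd3d (0.75 ± 0.25, adjusted p = 0.0862) and Cd247, the zeta chain (0.47 ± 0.17, adjusted p = 0.113), did not pass. Neither did Cd3g (0.50 ± 0.23), Cd4 (0.15 ± 0.12) or Cd8a (0.09 ± 0.11). The 2 chains of the Cd8 co-receptor thus gave different values on the probe sets used. Cd8a has 5 probe sets, of which only that with the highest mean is given here.

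Among the signalling and surface proteins of T cells, Cd5, a scavenger receptor-like protein that dampens antigen receptor signals, stood at 4.95, 5.02, 5.04 and 5.14 against 4.22, 4.37, 4.52 and 4.59. The groups did not overlap, and Cd5 rose by 0.61 ± 0.17 (adjusted p = 0.0437). Lat, the adaptor that links the receptor to its downstream enzymes, rose by 0.56 ± 0.16 (adjusted p = 0.0437), from 6.81 to 7.18 in controls to 7.40 to 7.69. Other surface proteins among the T cell genes gave 0.35 ± 0.13 for Cd6, 0.31 ± 0.22 for the costimulatory receptor Cd28, 0.16 ± 0.18 for the adhesion molecule Cd2, 0.06 ± 0.30 for Il7r and -0.04 ± 0.16 for Icos, none of which passed. Of 17 further T cell genes 1 rose, Ccr7, the receptor that guides naive T cells and dendritic cells into lymphoid tissue (0.90 ± 0.24, adjusted p = 0.0308).

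Cd79a, whose animals are listed because of its value here, stood at 7.79, 8.07, 8.34 and 8.38 under malathion and at 6.72, 6.83, 6.90 and 7.37 in the feed controls. All treated animals lay above all controls, and Cd79a rose by 1.19 ± 0.34 (adjusted p = 0.0476), or 2.28-fold. Its partner Cd79b (0.93 ± 0.33), the B cell kinase Blk (0.71 ± 0.22, adjusted p = 0.0634), the tetraspanin Cd37 (0.70 ± 0.22), the inhibitory lectin Cd22 (0.50 ± 0.20) and Ms4a1 (0.56 ± 0.49) did not pass. Nor did the transcription factor Pax5 (0.27 ± 0.14), Fcrla (0.28 ± 0.18) or the complement receptor Cr2 (0.08 ± 0.20). The 14 further B cell genes had a median change of 0.57 and 0 calls.

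The NK and cytotoxic genes spread widely among the 4 malathion-treated animals. Gzma stood at 8.07, 8.89, 9.13 and 10.23 against 9.78, 9.79, 9.79 and 9.83 in the controls, so that 1 animal lay above and 3 below every control (-0.72 ± 0.27, adjusted p = 0.133). Animal 2-38 was the lowest and animal 2-33 the highest of the 4 in Gzma, Gzmb, Prf1, Ncr1 and Nkg7 alike. Of the other cell types, 3 of 5 secretory cell genes fell, among them Scgb3a2 (-0.59 ± 0.11, adjusted p = 0.0017). The mean of 8 neutrophil genes was 7.43 to 9.19 against 6.99 to 7.08, and that of 8 pan-leukocyte genes 10.15 to 10.42 against 9.79 to 10.07, with 0 called in either. Their part in the T and B cell result was not tested.

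**Figure D4:**
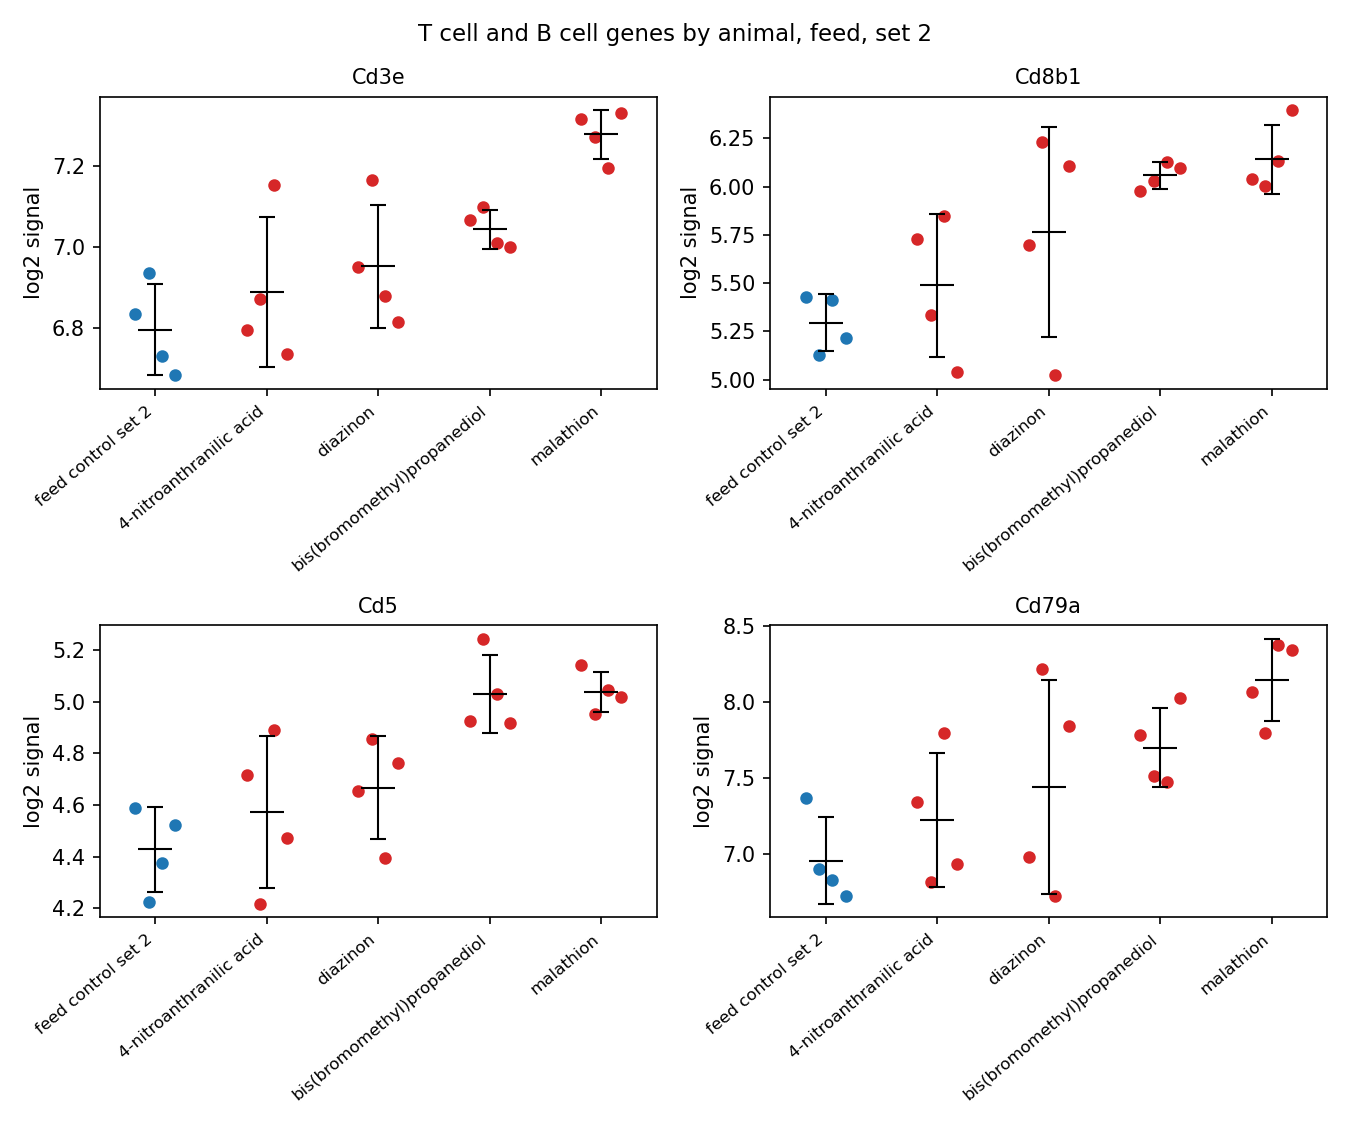
Log2 signal of Cd3e, Cd8b1, Cd5 and Cd79a in each animal of the feed groups of set 2, with the mean and SD as black bars, controls in blue and treated animals in red. The malathion-treated animals lie above all feed controls in each of the 4 genes, and those given 2,2-bis(bromomethyl)-1,3-propanediol do so too, while 4-nitroanthranilic acid and diazinon overlap with the controls.

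Of the 5 malathion calls, that of Cd3e held in 18 of 19 alternatives (0.41 to 0.53) and was lost without animal 2-39 (adjusted p = 0.054). The others had adjusted p values just under the threshold. Without 1 animal the count of 5 fell to 0 (2-39), to 1 (malathion animal 2-38, or any of the controls 2-42, 2-43, 2-44 and 2-45) or to 2 (2-33). With feed controls of both sets pooled 1 member was called, Cd3e at 0.41 (adjusted p = 0.0269). The amount of RNA solution given to the array core was 10 or 15 µl within both groups, and 2 members were called with it as a block, as with no filter on low signal or with renewed quantile normalization. The count was 3 with a filter at the 50th percentile, 10 with the arrays of the 2 groups alone and 13 with array weights. For these settings the share of all genes called is not given here. The feed controls of set 2 had the lowest group mean of all 18 groups for the B cell genes (6.12, SD 0.13) and for the T cell genes (6.08, SD 0.10). The 3 other chemicals fed in set 2 share these 4 controls.

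Set directly against those 3 chemicals, a comparison added after the others were seen, malathion gave 0 called members each time. The share of all genes called was 0.281% against diazinon, another organophosphate insecticide, 0.706% against 4-nitroanthranilic acid and 0% against 2,2-bis(bromomethyl)-1,3-propanediol. At an unadjusted p under 0.05 there were 6, 16 and 5 members. Cd3e differed from diazinon by 0.33 (95% interval 0.10 to 0.55, adjusted p = 0.305) and from 4-nitroanthranilic acid by 0.39 (0.17 to 0.61, adjusted p = 0.0675). Cd79a differed by 0.70 (0.02 to 1.39) and by 0.92 (0.24 to 1.61). Gzmb was lower than under diazinon by value (-0.78, -1.24 to -0.32, adjusted p = 0.16). Without malathion animal 2-33 there were 2 calls against diazinon and 2 against 4-nitroanthranilic acid, and without 4-nitroanthranilic acid animal 2-17 there was 1 against the latter.

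2,2-Bis(bromomethyl)-1,3-propanediol, a brominated flame retardant, left no member and no gene called (0% of 14593), and 30 of 32 members had a positive change against the controls it shares with malathion. NK and cytotoxic genes were among them, unlike under malathion: all 9 were positive, against 3 of 9. The share of all genes with a positive change is not given here, and many members vary together, so these counts are a description. In 13 of 32 members all 4 treated animals lay above all 4 controls, against 8.31% of all genes. Cd5 stood at 4.92, 4.93, 5.03 and 5.25 (0.60 ± 0.17, adjusted p = 0.284). For Cd8b1 the values were 5.98, 6.03, 6.10 and 6.13 (0.76 ± 0.24, adjusted p = 0.303). Cd247 gave 0.50 ± 0.17 (adjusted p = 0.344) and Cd79a 0.74 ± 0.34. The median change was 0.29 over the B cell genes, 0.25 over the T cell genes and 0.20 over the NK genes, and 10 members had an unadjusted p under 0.05. Array weights, which give less weight to arrays that vary more, raised the count of calls from 0 to 12, and with the arrays of these 2 groups alone it was 4. The share of all genes called under these settings is not given here, so the counts cannot be read as particular to the members.

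Diazinon (0.00685% of all genes called) and 4-nitroanthranilic acid (0%) gave 0 called members, and 1 and 0 at an unadjusted p under 0.05. Under diazinon the smallest p belonged to Il2rb (0.36 ± 0.14, adjusted p = 0.883), followed by Cd8b1 (0.47 ± 0.24) and Cd22 (0.39 ± 0.20). The diazinon animals spread more than the controls: Cd79a stood at 6.72, 6.98, 7.84 and 8.21, and animal 2-25 was the lowest of its group in Cd79a, Cd8b1, Cd5, Gzma and Prf1. Under 4-nitroanthranilic acid the smallest p values belonged to Tbx21 (0.30 ± 0.24), Eomes (0.17 ± 0.16) and Cr2 (0.20 ± 0.20), and all 9 NK genes had a positive change.

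In the water gavage groups the called gene was Il7r, the interleukin 7 receptor that keeps naive T cells alive. It stood at 5.25, 6.13, 6.62 and 7.17 under N-methylolacrylamide, an acrylamide derivative, and at 4.68, 5.33, 5.40 and 5.44 in the water controls, with 1 treated animal inside the control range. It rose by 1.08 ± 0.30 (adjusted p = 0.0104), as 1 of 32 members called higher against 10.7% of all genes, and a second probe set gave 0.66 ± 0.27. The median change of the 14 T cell genes was 0.09, so Il7r stood apart from its type. Of 14 further B cell genes 1 rose, Ebf1, a B lineage factor (0.67 ± 0.21, adjusted p = 0.0218). The water controls were themselves low in Il7r, as the vehicle comparison shows, and the count became 0 without treated animal 2-102 or 2-106 or control 2-121, 2 without control 2-127 and 3 without control 2-129.

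2-Chloromethylpyridine hydrochloride gave 0 called members (0% of all genes, 4 members at an unadjusted p under 0.05), with the smallest p in the B cell genes. Ms4a1 stood at 5.94, 6.55, 6.61 and 6.88 against 3.76, 4.56, 5.02 and 6.84 in the water controls, a range of the controls that took in 3 of the 4 treated animals (1.45 ± 0.49, adjusted p = 0.351). Cd79a stood at 8.25, 8.40, 8.83 and 9.10 against 7.15, 7.18, 7.84 and 9.10 (0.83 ± 0.34, adjusted p = 0.372). Eomes gave 0.35 ± 0.16. Control animal 2-127 had the highest value of the water controls in both B cell genes.

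1,5-Naphthalenediamine gave 0 called members (1.11% of all genes, 4 members at an unadjusted p under 0.05), and its lowest values were in NK and cytotoxic genes. Gzma stood at 8.80, 9.29 and 9.50 against 9.89, 10.28 and 10.33 in the feed controls of set 1, without overlap (-0.97 ± 0.31, adjusted p = 0.141). Klrd1 gave -0.79 ± 0.28 (adjusted p = 0.24) and Gzmb -0.60 ± 0.26 (adjusted p = 0.452). Gzmb stood at 5.67, 5.91 and 6.29 against 6.49, 6.57 and 6.61. Of the 23 T and NK genes tested, 9 had all 3 treated animals below all 3 controls, against 11.1% of all genes: Cd3d, Cd3g, Cd247, Cd2, Icos, Nkg7, Gzma, Gzmb and Klrd1. The 9 B cell genes had a median change of 0.13, while 4 of 8 plasma cell genes rose, among them Jchain, which joins antibody units (3.61 ± 0.73, adjusted p = 0.0015). With the arrays of the 2 groups alone 3 members were called, with array weights 2, and with pooled controls 1. N-(1-naphthyl)ethylenediamine dihydrochloride and pentachloronitrobenzene share these feed controls. The NK mean was 6.38 to 6.67 in the controls and 5.88 to 6.25 under 1,5-naphthalenediamine. It was 6.17 to 6.37 under N-(1-naphthyl)ethylenediamine dihydrochloride and 6.75 to 6.86 under pentachloronitrobenzene. Under N-(1-naphthyl)ethylenediamine dihydrochloride, Gzma (9.64 to 9.77) and Gzmb (5.96 to 6.45) also lay below these controls.

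The other chemicals of set 1 gave 0 called members: N-(1-naphthyl)ethylenediamine dihydrochloride (0.00685% of all genes), pentachloronitrobenzene (0.00685%) and 2,3-benzofuran (4.07%). At an unadjusted p under 0.05 there were 4, 1 and 2 members. Under the first, Cd6, a T cell adhesion receptor, gave 0.43 ± 0.15 (adjusted p = 0.516), Klrd1 -0.64 ± 0.28 and Cd3e 0.29 ± 0.13. For pentachloronitrobenzene the values were -0.41 ± 0.18 for Icos, 0.44 ± 0.26 for Gzmb and 0.37 ± 0.25 for Ncr1. With 2,3-benzofuran they were -0.62 ± 0.25 for Ncr1 (adjusted p = 0.16), -0.63 ± 0.31 for Gzma and 0.36 ± 0.18 for Lat. Array weights gave 2 calls for the first chemical and 1 for 2,3-benzofuran.

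Benzene (0.0891% of all genes) and 1,2-dibromoethane (4.03%) also gave 0 called members, and 1 and 2 at an unadjusted p under 0.05. Under benzene, Prf1 gave -0.37 ± 0.18 (adjusted p = 0.517), Gzmb -0.39 ± 0.20 and Cd3e -0.18 ± 0.10. Under 1,2-dibromoethane the smallest p values were those of Pax5 (0.29 ± 0.12, adjusted p = 0.157), Prf1 (-0.37 ± 0.18) and Il7r (0.48 ± 0.26). Among the further lymphocyte genes 0 were called under benzene. Under 1,2-dibromoethane 2 of 14 B cell genes rose, Vpreb3, a partner of the early B cell receptor (0.53 ± 0.11, adjusted p = 0.0046), and the adaptor Blnk (0.65 ± 0.20, adjusted p = 0.0462). Of 11 NK and cytotoxic genes 1 rose, granzyme K (Gzmk, 0.49 ± 0.14, adjusted p = 0.0341), and of 17 T cell genes 1 fell, S1pr1 (-0.65 ± 0.15, adjusted p = 0.0077). Animal 2-56 of this group had a 3' minus 5' difference of 0.99, with 0.14 to 0.25 in the others. The mean of 8 neutrophil genes in the group ran from 6.99 to 10.43. The part of either in these calls was not tested. The median change of the 9 NK members was -0.18 with benzene and -0.20 with 1,2-dibromoethane, against -0.68 with coumarin, and the 3 chemicals share their controls.

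**Figure D5:**
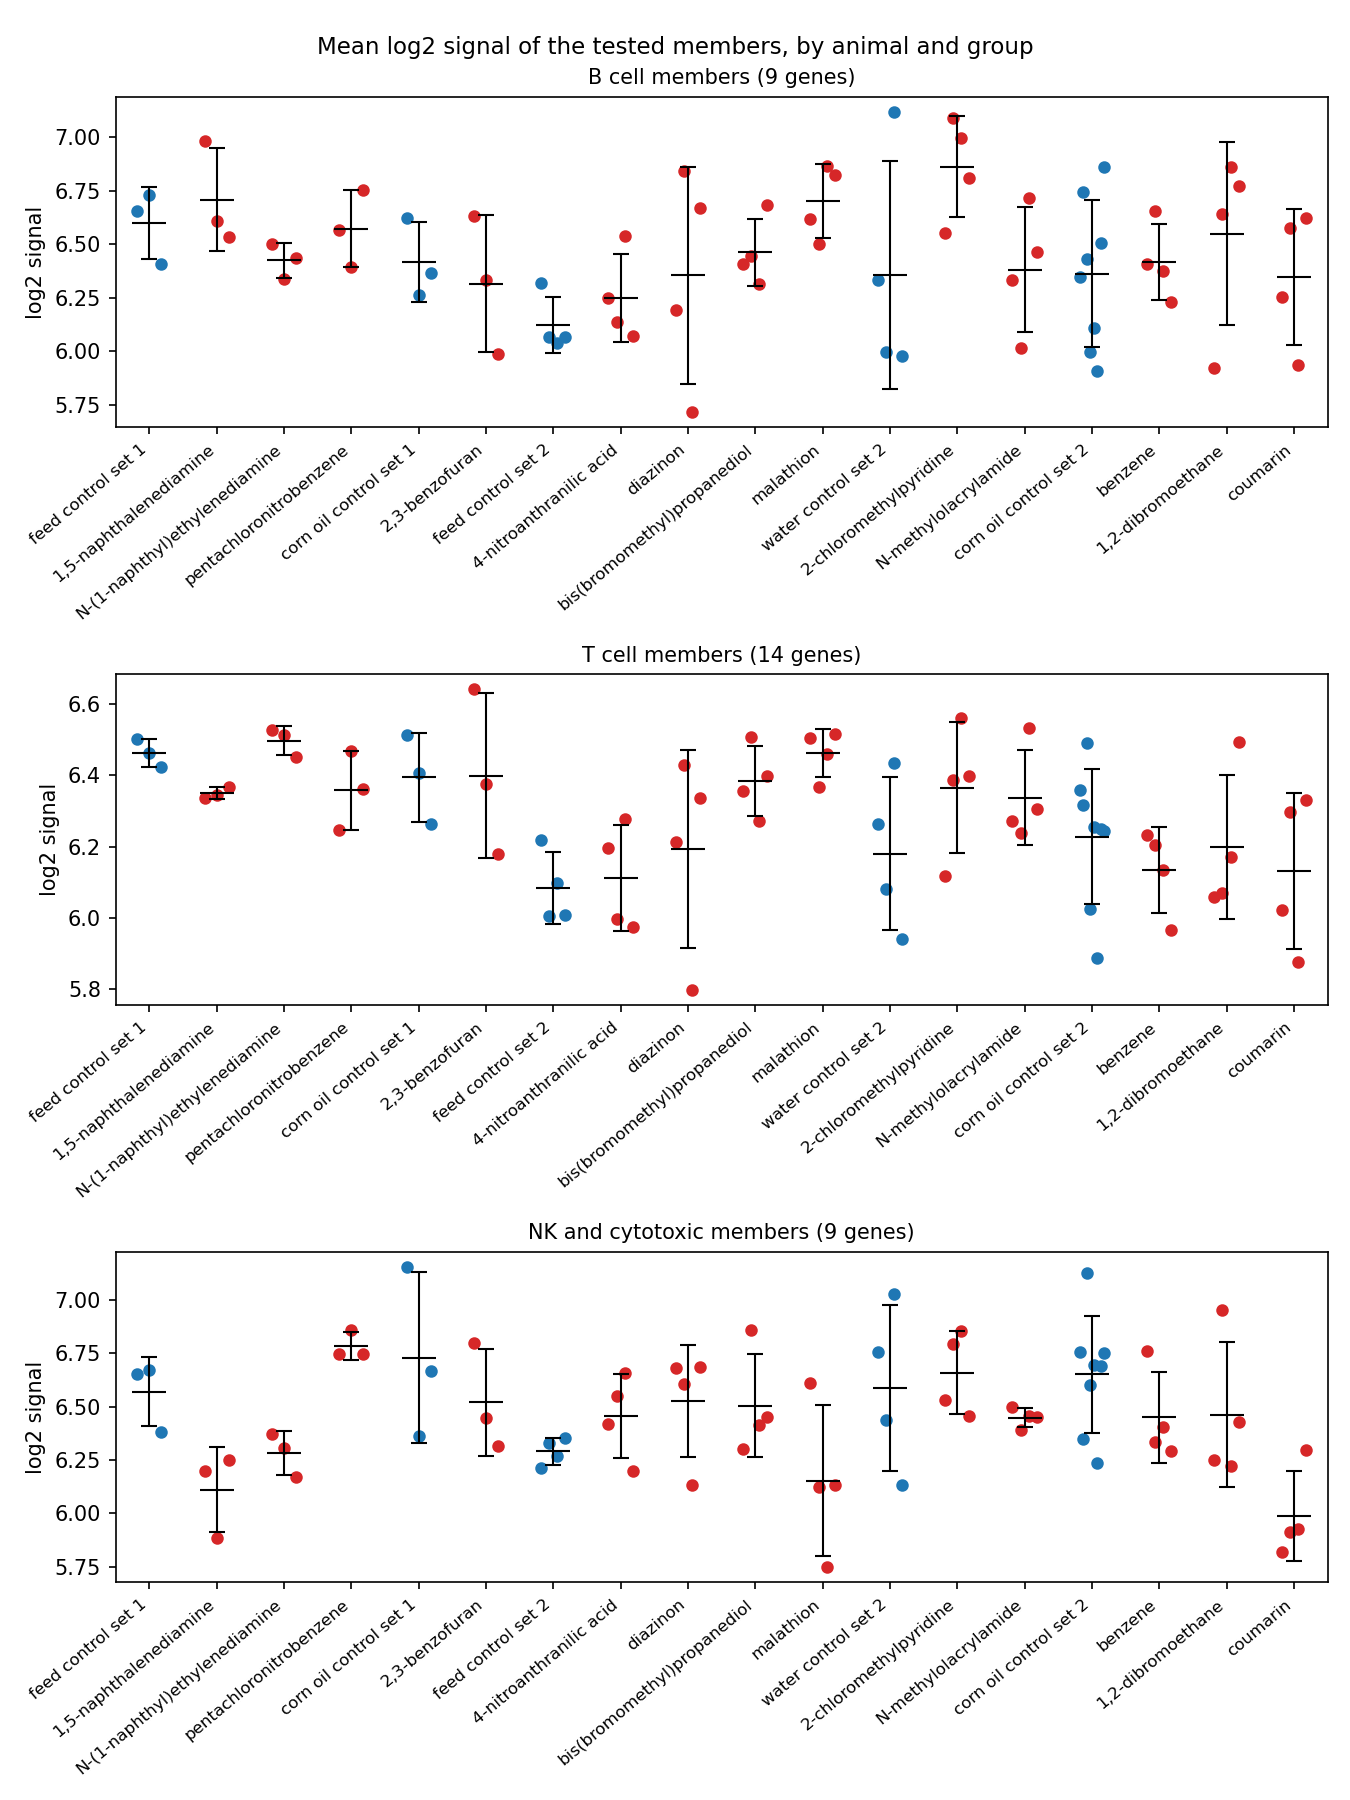
Mean log2 signal over the tested genes of each lymphocyte type in each of the 70 animals, by group, with the mean and SD as black bars, controls in blue and treated animals in red. The coumarin-treated animals are the lowest group for the NK and cytotoxic genes (mean 5.99, SD 0.21), and the feed controls of set 2 are the lowest for the B cell genes (6.12) and the T cell genes (6.08).

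Controls of different vehicles were also compared within a set. Water controls against feed controls had 9 of 32 members higher (15.5% of all genes) and 1 lower (18.2%), and over both directions together the members' share of calls was below that of all genes. The 9 were Cd79a (0.86 ± 0.34), Pax5 (0.47 ± 0.14) and Cd37 (0.64 ± 0.22) of the B cell genes, Cd3e (0.49 ± 0.11), Cd5 (0.48 ± 0.17) and Cd6 (0.47 ± 0.13) of the T cell genes, and Prf1 (0.75 ± 0.20), Tbx21 (0.65 ± 0.24) and Il2rb (0.69 ± 0.14) of the NK genes. Il7r fell by 1.05 ± 0.30 (adjusted p = 0.0052), from 5.95, 6.01, 6.08 and 7.01 in the feed controls to the 4 water control values above, without overlap. Without water control 2-121 the count was 6. The mean of 9 alveolar macrophage genes was 8.93 to 9.26 in the water controls against 9.44 to 9.67 in the feed controls, and its part in these values was not tested. The other probe set of Prf1 gave -0.02 ± 0.13.

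Corn oil controls against feed controls of set 2 had 3 members higher (1.67% of all genes) and 0 lower: Cd3e (0.38 ± 0.10, adjusted p = 0.0161), Prf1 (0.67 ± 0.18, adjusted p = 0.0222, and -0.09 ± 0.11 on its other probe set) and Il2rb (0.51 ± 0.12, adjusted p = 0.0101). Without feed control 2-42, 2-44 or 2-45 the count was 1, and without corn oil control 2-95 it was 6. Corn oil against water controls had 2 of 32 members higher, a smaller share than the 12.3% of all genes: Il7r (0.78 ± 0.26, adjusted p = 0.0245) and Eomes (0.44 ± 0.14, adjusted p = 0.0186). They had values of 0.33 ± 0.24 and -0.03 ± 0.10 on their other probe sets. That count was 0 without corn oil control 2-99 or water control 2-124, and 1 without water control 2-121 or 2-129. In set 1, corn oil against feed controls had 0 called (0% of all genes, 1 member at an unadjusted p under 0.05), with the smallest p values for Cr2 (-0.49 ± 0.23), Icos (-0.27 ± 0.18) and Gzmb (0.36 ± 0.26). The difference between the corn oil effects of set 2 and set 1 was called in 0 members (0% of all genes, 4 members at an unadjusted p under 0.05).

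Tumour class was compared over the 13 chemicals, with 1 change per chemical, 7 positive against 6 negative. No member was called (0% of all genes, 4 members at an unadjusted p under 0.05). The smallest p values belonged to Prf1, whose mean change was -0.32 in the positive and 0.02 in the negative chemicals (difference -0.33 ± 0.12, limma adjusted p = 0.746). Next came Cd3e (-0.25 ± 0.09) and Ncr1 (-0.34 ± 0.14), both with the same adjusted p. All 4 corn oil chemicals are positive and 5 of the 6 negative chemicals were fed, so the effects of vehicle and class cannot be fully told apart.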

How the data were processed

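Arrays of 70 lungs were analysed. Per the labels' protocols, Trizol and RNeasy columns served for RNA and biotin for labelling. The values deposited by the authors run from 2.47 to 14.5 with none missing and were taken as log2 signals per probe set. Their summarization and normalization are "not given in the sources used here". Gene symbols came from the platform annotation and, through Entrez numbers, from RefSeq on GRCm38.p6. A gene was tested where its probe set had a mean over the 30th percentile of all probe sets (4.25).

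One limma 3.58.1 fit (in R 4.3.3) with a mean per group gave all comparisons of groups. Tumour class was fitted on the 13 changes. The number of arrays limits the precision. Statistics were tested on simulated data. Promoter sequences are RefSeq's. Figures used matplotlib 3.10.9 in Python 3.11.15.

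The members and all gene lists were chosen with earlier results of these data known. The text names every called member, the 3 smallest p values where a comparison calls none, animal values for 8 members with the most calls and smallest p, and up to 4 called genes of another list. Animal values of Cd79a and Ms4a1, the values of members that did not pass in malathion, coumarin and bis(bromomethyl)propanediol, the direct comparisons of treated groups and the promoter motifs were chosen after values were seen. Alternatives were other low filters, the mean over probe sets, quantile normalization, array weights, robust estimation with a variance trend, only the arrays compared, pooled controls, the RNA amount and the 3' minus 5' difference as covariates, and each array left out.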

Additional observations from a re-analysis of the deposited data

Results flagged for a closer look

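Single animals stood apart from their group in 6 of 144 checks of the 3 type means and 9 named genes in groups of 4 to 8 animals. Chance alone flags about 1 in 20. In the feed controls of set 2, animal 2-42 had Il7r at 7.01, with the other 3 at 5.95 to 6.08, and a mean of the B cell genes of 6.32, with the next at 6.07. These are controls of the malathion comparison. Water control 2-121 had Il7r at 4.68, with the next at 5.33. Malathion animal 2-38 had Il7r at 6.66, with the next at 6.24. Benzene animal 2-86 had Cd3e at 6.94, with the next at 7.02 and a group range of under 0.1 log2 units. Diazinon animal 2-25 had a mean of the NK and cytotoxic genes of 6.13, with the next at 6.61.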

How the results depend on the processing

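Counts of members called that moved by more than 1.5 times are given here by setting, and the cause was not tested. The share of all genes called under each setting is not given, so a higher count cannot be read as particular to the members. Array weights gave 2 for 1,5-naphthalenediamine, 2 for N-(1-naphthyl)ethylenediamine dihydrochloride, 1 for 2,3-benzofuran, 12 for 2,2-bis(bromomethyl)-1,3-propanediol, 13 for malathion, 4 for coumarin and 4 for N-methylolacrylamide. They gave 7 for corn oil against feed controls of set 2, 16 for water against feed controls, and 2, 15 and 2 for malathion against diazinon, 4-nitroanthranilic acid and 2,2-bis(bromomethyl)-1,3-propanediol. The arrays of the 2 groups alone gave 3 for 1,5-naphthalenediamine, 4 for 2,2-bis(bromomethyl)-1,3-propanediol, 10 for malathion, 1 for coumarin, 12 for malathion against 4-nitroanthranilic acid, and 0 for N-methylolacrylamide, corn oil against feed or water controls of set 2, and coumarin against benzene. Pooled controls gave 1 for 1,5-naphthalenediamine, 1 for malathion and 5 for coumarin. No low filter, quantile normalization once more and the RNA amount as a block each gave 2 for malathion, and the RNA amount gave 1 for corn oil against feed controls. A filter at the 50th percentile of gene means gave 3 for malathion, 2 for coumarin, 1 for corn oil against feed controls, 4 for water against feed controls, and 0 for N-methylolacrylamide, corn oil against water controls and coumarin against benzene. A filter at the 30th percentile of gene means, added after the data were seen, gave 1 and 0 for the last pair, and the mean over all probe sets gave 0 for corn oil against water controls.

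With each array left out, counts ran from 0 to 9 for coumarin, 0 to 4 for malathion, 0 to 3 for N-methylolacrylamide, 1 to 6 for corn oil against feed controls of set 2, 6 to 13 for water against feed controls and 0 to 3 for corn oil against water controls. They ran from 0 to 2 for coumarin against benzene or 1,2-dibromoethane and for malathion against diazinon or 4-nitroanthranilic acid. All 30 called gene results kept their direction in all 577 settings run on them, and 158 of these settings missed the threshold. The results were picked for passing in these same arrays, so a kept direction is no separate support. No paired analysis was possible because the animal identifiers are not shared between groups.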
